A study of Mus musculus with 48 samples.

Results

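Hippocampal mRNA from female offspring that were stressed before birth, and later classed as socially affected, was set against mRNA from offspring not stressed before birth. All of them were labelled heterozygous for the serotonin transporter gene Slc6a4 (5-Htt+/-). The libraries were chosen by their labels for genotype, stress and social behaviour, which gave 8 libraries of 5-Htt+/- SA and 7 libraries of 5-Htt+/- C, or 15 of the 48 libraries in the series. Pregnant dams of the stressed groups were restrained 3 times a day from embryonic day 13 to 17 (prenatal stress, PS), and control dams were left undisturbed. A social test then divided the stressed offspring into socially affected (SA, labelled PS-susceptible) and socially unaffected (SU, labelled PS-resilient) animals. The offspring were C57BL/6 females of 3 months, born to wildtype C57BL6/J dams and 5-Htt+/- sires of the Slc6a4tm1Kpl line. The 5-Htt+/- C and 5-Htt+/- SA animals thus shared genotype, sex, age and wildtype mothers. They differed in prenatal stress and, through the behavioural class, in sociability. Per the study, controls and stressed offspring alike went through behavioural tests that included a swim test. An acute restraint with blood sampling followed before sacrifice, and the study reported no significant effect on corticosterone. Whole-body heterozygosity is not limited to a cell type, and the powdered tissue of both hippocampi holds all of its cells. The remaining libraries, used here only to place these values, were 9 of 5-Htt+/- SU, 8 of 5-Htt+/+ C, 8 of 5-Htt+/+ SA and 8 of 5-Htt+/+ SU.

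The serotonin transporter takes serotonin back up into the endings of raphe neurons, which reach the hippocampus as axons while their cell bodies lie in the brainstem. The hippocampus is also rich in receptors for corticosteroid hormones, the glucocorticoid receptor Nr3c1 and the mineralocorticoid receptor Nr3c2. Bound to corticosterone, these receptors enter the nucleus and raise the transcription of a well-known set of target genes, among them the kinase Sgk1, the co-chaperone Fkbp5, the leucine zipper protein Tsc22d3 (GILZ), the metallothioneins Mt1 and Mt2, the clock gene Per1 and the NF-kappaB inhibitor Nfkbia.

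Each library gave between 16488405 and 38213754 counted reads, with a median of 24133643 in 5-Htt+/- C and 28212716.5 in 5-Htt+/- SA. Levels below are in CPM, counts scaled to a common library total by upper quartile factors. Slc6a4 (chromosome 11, 76998603 to 77032340), the targeted gene, went against the usual direction of a targeted allele. Mean Slc6a4 stood at 14.98 ± 1.01 CPM (SD, n = 7) in 5-Htt+/- C and at 14.8 ± 1.23 CPM (SD, n = 8) in 5-Htt+/- SA, but at 0.119 CPM in 5-Htt+/+ C, 0.187 CPM in 5-Htt+/+ SA and 0.109 CPM in 5-Htt+/+ SU. The groups are therefore named as the libraries labelled so, and gene counts cannot tell which exons the Slc6a4 reads came from. Between the libraries labelled 5-Htt+/- SA and 5-Htt+/- C, Slc6a4 had a log2 fold change of -0.01 (adjusted p 0.96), and it lay above every 5-Htt+/+ group in both. Neuronal markers of the tissue were present throughout, with Wfs1 and Fibcd1 of CA1 pyramidal cells at 59.6 CPM or more and Stxbp6 and Calb1 of dentate granule cells at 44.5 CPM or more in all 15 libraries.

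Several libraries stood apart. On the first principal component of all 48 libraries, which held 7.63% of the variance, 5-Htt+/- C replicates 1, 3 and 7 lay at 43.4, 47.4 and 45.8, while 5-Htt+/- C replicate 4 lay at -35.1 and 5-Htt+/- SA replicate 4 at -36.9. The 6 libraries highest on it were those 3 controls and 1 library each of 5-Htt+/- SU, 5-Htt+/+ C and 5-Htt+/+ SA, so leaving them out keeps 4 controls and 8 SA libraries. Markers of choroid plexus epithelium averaged over 2 log2 CPM in 20 of the 48 libraries, called choroid-rich below, among them 5-Htt+/- C replicate 5 and 5-Htt+/- SA replicates 3, 4 and 5. Reads from the mitochondrial genome made up 4.60% ± 0.677 (SD, n = 7) in 5-Htt+/- C and 5.04% ± 0.467 (SD, n = 8) in 5-Htt+/- SA, with ranges of 3.43% to 5.56% and 4.41% to 5.85%. In 5 two-sided exact permutation tests, mitochondrial share gave p = 0.158, the first component p = 0.147, genes with a read p = 0.316, choroid plexus score p = 0.672 and total reads p = 0.69, with adjusted p between 0.395 and 0.69. Leaving out the choroid-rich libraries keeps 6 controls and 5 SA libraries. The called genes and the lists that these libraries moved most are given with and without them.

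In 5-Htt+/- SA, 8 genes fell and 1 rose against 5-Htt+/- C at an adjusted p under 0.05 (edgeR quasi-likelihood test, Benjamini-Hochberg over 31208 genes), which is 0.0256% of genes tested in the lower direction and 0.0032% in the higher. The genes that fell were Sgk1, Mt1, Pim3, Ppp1r3g, Lfng, Nfkbia, Sdc4 and Mfsd2a, and the gene that rose was the noncoding RNA RP23-185B22.1. At an unadjusted p under 0.05 there were 2172 lower genes (6.96%) and 1614 higher genes (5.17%), and the median log2 fold change of all genes was -0.01. Of all genes, 51.9% had a lower estimate. Without the 6 libraries of highest first component, 835 of 30995 genes were lower and 817 higher at that p. Without the choroid-rich libraries, 835 of 30254 were lower and 547 higher. Counts of list members below are to be read beside these shares. Libraries of both groups did not overlap at all for 10 lower genes (0.032%) and 5 higher genes (0.016%). Among the called genes that held for Sgk1, Mt1 and Sdc4.

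Sgk1, a kinase that acts on ion channels and transporters downstream of phosphoinositide signalling, lies on chromosome 10 (21882184 to 21999903, plus strand). Its lowest, median and highest levels were 60.9, 74.0 and 88.6 CPM in 5-Htt+/- C and 41.8, 49.7 and 55.8 CPM in 5-Htt+/- SA. Every SA library lay below every control, with a log2 fold change of -0.62 (SE 0.09, adjusted p = 0.000347). In the groups outside this contrast Sgk1 averaged 51.7 CPM in 5-Htt+/- SU, 58.6 in 5-Htt+/+ C, 53.0 in 5-Htt+/+ SA and 51.9 in 5-Htt+/+ SU, so the 5-Htt+/- C mean of 75.0 ± 10.8 CPM (SD, n = 7) was the highest of the 6 groups. It was past the threshold without each of the 15 libraries in turn and under 14 of 15 other settings. When the 6 libraries of highest first component were left out its log2 fold change was -0.60 (adjusted p = 0.0122), and without the choroid-rich libraries it was -0.65 (adjusted p = 0.211).

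Mt1, a metallothionein that binds zinc and copper, lies on chromosome 8 (94179089 to 94180325, plus strand) beside Mt2. Its lowest, median and highest levels were 70.0, 79.5 and 134 CPM in 5-Htt+/- C and 51.1, 57.1 and 64.9 CPM in 5-Htt+/- SA, again without overlap. The log2 fold change was -0.57 (SE 0.10, adjusted p = 0.00403), and without 5-Htt+/- C replicate 3, the library at 134 CPM, it was -0.43 (adjusted p = 0.0299). Without the 6 libraries of highest first component it was -0.43 (adjusted p = 0.0847), and without the choroid-rich libraries -0.55 (adjusted p = 0.348). Mt1 averaged 62.6 CPM in 5-Htt+/- SU and 62.9, 57.6 and 62.8 CPM in 5-Htt+/+ C, SA and SU. Its neighbour Mt2 did not pass the test, with levels of 38.3, 43.6 and 71.5 CPM in 5-Htt+/- C and 29.4, 34.2 and 36.7 CPM in 5-Htt+/- SA, a log2 fold change of -0.49 and an adjusted p of 0.0948. The libraries of both groups did not overlap for Mt2, which held for 0.032% of all genes in the lower direction.

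Nfkbia encodes IkappaBalpha, which holds NF-kappaB in the cytoplasm, and lies on chromosome 12 (55489411 to 55492647, minus strand). It fell from 10.2, 12.2 and 15.4 CPM (lowest, median and highest) in 5-Htt+/- C to 7.26, 8.60 and 11.6 CPM in 5-Htt+/- SA, where the ranges overlapped, with a log2 fold change of -0.48 (SE 0.10, adjusted p = 0.0378). Pim3, a constitutively active serine/threonine kinase on chromosome 15 (88862186 to 88865718, plus strand), fell from 16.3, 18.7 and 22.7 CPM to 11.7, 14.8 and 17.6 CPM, by -0.41 on the log2 scale (SE 0.08, adjusted p = 0.0378). Both were lower in most SA libraries but not in all of them, and each passed the threshold in 5 of the 15 fits that left out 1 library.

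Ppp1r3g, a subunit that targets protein phosphatase 1 to glycogen, lies on chromosome 13 (35958839 to 35970388, plus strand). It fell from 3.48, 4.98 and 6.48 CPM in 5-Htt+/- C to 2.48, 2.98 and 4.10 CPM in 5-Htt+/- SA, a log2 fold change of -0.68 (SE 0.14, adjusted p = 0.0378). Lfng, the glycosyltransferase Lunatic fringe that modifies Notch receptors, lies on chromosome 5 (140607320 to 140615545, plus strand) and fell from 8.03, 10.504 and 12.4 CPM to 6.11, 6.90 and 9.74 CPM, a log2 fold change of -0.51 (SE 0.10, adjusted p = 0.0378). In both genes the highest SA library lay above the lowest control.

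Sdc4, the heparan sulphate proteoglycan syndecan 4 on chromosome 2 (164424247 to 164443887, minus strand), fell from 47.3, 54.1 and 64.0 CPM in 5-Htt+/- C to 33.6, 41.4 and 47.0 CPM in 5-Htt+/- SA. The highest SA library lay just under the lowest control, and the log2 fold change was -0.39 (SE 0.08, adjusted p = 0.0417). Mfsd2a, the transporter of lysophosphatidylcholine at the blood-brain barrier, lies on chromosome 4 (122946850 to 122961188, minus strand). It fell from 13.2, 16.8 and 19.8 CPM to 11.4, 12.4 and 14.4 CPM with some overlap, a log2 fold change of -0.41 (SE 0.08, adjusted p = 0.0472). Sdc4 averaged 46.1 CPM in 5-Htt+/- SU and 48.2, 48.7 and 47.6 CPM in 5-Htt+/+ C, SA and SU, while Mfsd2a averaged 13.2 CPM and 14.1, 13.7 and 13.3 CPM there. Without the 6 libraries of highest first component, Pim3, Ppp1r3g, Lfng, Nfkbia, Sdc4 and Mfsd2a all kept the lower direction but were past no threshold (adjusted p 0.511 to 0.856). Without the choroid-rich libraries the same 6 genes had log2 fold changes of -0.35, -0.66, -0.39, -0.42, -0.44 and -0.45 in that order, at adjusted p of 0.462 to 0.947.

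RP23-185B22.1, an intergenic noncoding RNA on chromosome 8 (60719291 to 60725806, plus strand), rose from 0.0976, 0.250 and 0.430 CPM in 5-Htt+/- C to 0.326, 0.644 and 0.991 CPM in 5-Htt+/- SA, with a log2 fold change of 1.33 (SE 0.25, adjusted p = 0.0223). These levels rest on 2 to 11 reads per control library and 7 to 23 reads per SA library. Its mean was 0.614 CPM in 5-Htt+/- SU and 0.443, 0.612 and 0.613 CPM in 5-Htt+/+ C, SA and SU, so that 5-Htt+/- C held the lowest mean of the 6 groups. Its log2 fold change without the 6 libraries of highest first component was 1.08 (adjusted p = 0.511), and without the choroid-rich libraries 1.34 (adjusted p = 0.348). For the 8 genes that fell, the 5-Htt+/- C mean was the highest of the 6 groups. They were called for being lower in 5-Htt+/- SA than in these controls, and that choice favours such a ranking. The same holds for the low rank of 5-Htt+/- C for RP23-185B22.1.

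**Figure D1:**
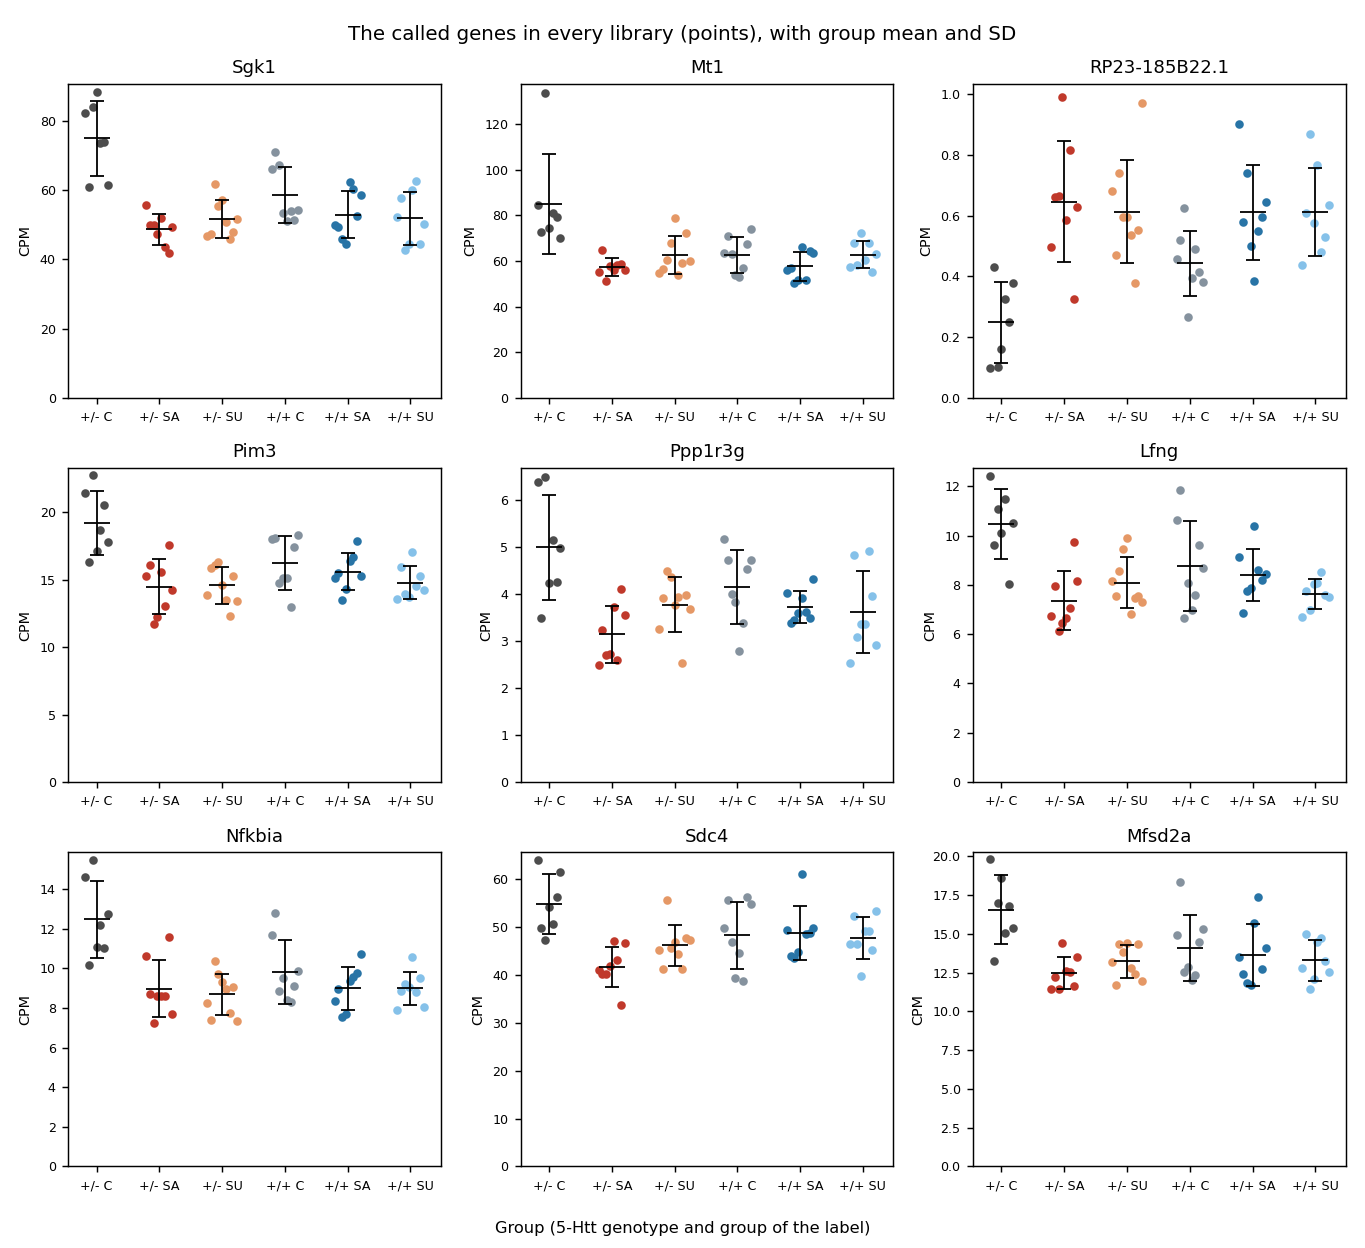
Level in CPM (vertical axis, 1 panel per gene) of the 9 called genes in all 48 libraries, by group, with the mean and SD of each group. The 5-Htt+/- C mean is the highest of the 6 for the 8 genes that fell, a ranking favoured by calling them against these controls. Single libraries of other groups reach into the 5-Htt+/- C range. For Sgk1 the 60.9 to 88.6 CPM of 5-Htt+/- C stand clear of the 41.8 to 55.8 CPM of 5-Htt+/- SA.

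Promoter sequence is shown for the corticosteroid targets Sgk1, Mt1, Mt2 and Nfkbia, because 3 of them were called and the pair Mt1 and Mt2 lies side by side with like differences. Each run is the 250 bases before a RefSeq start site (GRCm38.p6), printed from 5′ to 3′ on the strand of the gene. Capitals mark letters that match a glucocorticoid response element (GNACA, any 3 bases, then TGTNC), a metal response element core (TGCACNC or TGCGCNC) or an NF-kappaB site, on either strand.
Sgk1, chr10:21993640-21993889, plus strand: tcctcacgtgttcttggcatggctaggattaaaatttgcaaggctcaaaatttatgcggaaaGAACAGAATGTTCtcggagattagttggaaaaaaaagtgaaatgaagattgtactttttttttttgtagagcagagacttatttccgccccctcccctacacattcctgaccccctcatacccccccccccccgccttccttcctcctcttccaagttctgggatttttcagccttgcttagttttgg
Mt1, chr8:94178839-94179088, plus strand: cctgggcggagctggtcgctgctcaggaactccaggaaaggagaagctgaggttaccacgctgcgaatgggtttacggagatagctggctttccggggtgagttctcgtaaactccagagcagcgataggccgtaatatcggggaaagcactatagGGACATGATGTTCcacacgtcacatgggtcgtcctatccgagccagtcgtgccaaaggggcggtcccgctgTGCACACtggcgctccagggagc
Mt2, chr8:94172368-94172617, plus strand: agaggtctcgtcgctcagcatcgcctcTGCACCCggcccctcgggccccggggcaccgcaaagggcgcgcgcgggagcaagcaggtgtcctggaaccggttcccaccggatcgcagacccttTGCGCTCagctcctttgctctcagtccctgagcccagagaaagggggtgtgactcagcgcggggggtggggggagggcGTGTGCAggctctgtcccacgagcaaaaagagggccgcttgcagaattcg
Nfkbia, chr12:55492648-55492897, minus strand: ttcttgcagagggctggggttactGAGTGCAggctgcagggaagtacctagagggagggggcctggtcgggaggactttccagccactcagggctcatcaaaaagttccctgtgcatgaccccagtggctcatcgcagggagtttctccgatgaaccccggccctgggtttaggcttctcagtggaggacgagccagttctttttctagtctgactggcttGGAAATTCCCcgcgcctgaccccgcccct
The searched windows ran from 250 bases before to 50 bases after each start site. Sgk1 has 6 such windows, and 1 of them held a glucocorticoid response element, at position -188. Mt1 held one at position -94 and a metal response element core at -23, with further cores at 2 and 20 after the start. Mt2 held metal cores at -223, -128 and -50 before the start and at 4 after it. Nfkbia held a metal core at -226 and an NF-kappaB site at -29. Over all 32851 mouse windows of this length, 0.475% held the glucocorticoid element, 25.7% a metal core, 7.15% the E-box CACGTG, 1.79% a cyclic AMP response element and 4.51% an NF-kappaB site. Of 18 corticosteroid-induced genes with a window, 2 held the glucocorticoid element, 8 a metal core, 4 an E-box, 2 a cyclic AMP response element and 1 an NF-kappaB site. These counts are per gene, over 28 windows in all, while the shares above are per window, so they are not directly comparable. The glucocorticoid element reads as itself on both strands and was counted once per window. A match describes letters in a window and not a bound site.

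Of 21 corticosteroid-induced genes, 18 had a lower and 3 a higher estimate in 5-Htt+/- SA than in 5-Htt+/- C, with a median log2 fold change of -0.37 against -0.01 over all genes tested. Sgk1, Mt1 and Nfkbia were the 3 that fell at an adjusted p under 0.05. At an unadjusted p under 0.05, 16 were lower and 1 was higher, beside 6.96% and 5.17% of all genes. The mean log2 CPM of the 21 genes ran from 4.093 to 4.60 in 5-Htt+/- C and from 3.83 to 4.092 in 5-Htt+/- SA, so that the highest SA library lay just under the lowest control. The same mean averaged 4.01 in 5-Htt+/- SU, 4.09 in 5-Htt+/+ C and 4.03 in 5-Htt+/+ SA, beside 4.29 ± 0.169 in 5-Htt+/- C and 3.96 ± 0.109 in 5-Htt+/- SA (SD). The list was drawn up with earlier results of these data known, so its counts are a description.

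Among the 18 targets that did not pass the test, Tsc22d3 was at 49.8, 58.4 and 77.3 CPM (lowest, median and highest) in 5-Htt+/- C and 37.5, 45.3 and 50.5 CPM in 5-Htt+/- SA, with a log2 fold change of -0.42 (adjusted p 0.0948). Per1, a clock gene with direct corticosteroid control, was at 48.0, 57.5 and 66.6 CPM and 38.0, 47.0 and 56.7 CPM, with a log2 fold change of -0.29 (adjusted p 0.151). The ranges overlapped in both genes, and for Per1 the highest SA library came close to the control median. Fkbp5, which dampens the glucocorticoid receptor, averaged 60.0 CPM in controls and 52.3 CPM in SA, a log2 fold change of -0.20 (adjusted p 0.276).

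The lipid droplet protein gene Plin4 had the widest estimate, -0.96 on the log2 scale, from 19.9 ± 10.6 CPM (SD, n = 7) to 9.99 ± 4.52 CPM (SD, n = 8), but its libraries varied so much that the adjusted p was 0.26. Hif3a, a hypoxia-inducible factor subunit, had -0.68, Angptl4, an inhibitor of lipoprotein lipase, -0.48, the phosphatase gene Dusp1 -0.46, the arrestin-domain gene Arrdc2 -0.42 and the cell cycle inhibitor Cdkn1a -0.37. Ddit4, an inhibitor of mTORC1, had -0.30, Gpd1 of glycerol phosphate metabolism -0.20, Sult1a1 -0.18, Errfi1 -0.13 and Zbtb16 -0.11. The 3 genes with estimates above 0 were Klf9 at 0.03, Lcn2 at 0.05 and Pdk4, which inhibits pyruvate dehydrogenase, at 0.21 (unadjusted p 0.0287).

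Without the 6 libraries of highest first component, 11 of the 21 were lower at an unadjusted p under 0.05, 1 was called and the median was -0.24. Without the choroid-rich libraries 15 were lower at that p, none was called and the median was -0.42. With the mitochondrial share as a term 14 were lower, 2 were called and the median was -0.24. Of all genes, 835 of 30995, 835 of 30254 and 964 of 31208 were lower at that p in these fits, in that order. Of 9 tested genes for corticosteroid receptors and the CRH system, 5 had lower and 4 higher estimates, with a median of -0.04. Nr3c1 was at 57.7, 68.2 and 85.6 CPM in 5-Htt+/- C and 69.9, 79.2 and 101 CPM in 5-Htt+/- SA, a log2 fold change of 0.23 (unadjusted p 0.00866, adjusted p 0.332) with wide overlap. It had no unadjusted p under 0.05 without the 6 libraries of highest first component, without the choroid-rich libraries, or with the first component or mitochondrial share as a term, and its estimate was as low as 0.087. Nr3c2 had 0.01, the corticotropin-releasing hormone receptor Crhr1 0.02, Hsd11b1, which regenerates corticosterone in the cell, -0.04 and the chaperone partner Fkbp4 -0.06. The lowest estimate was that of Pomc, the precursor of ACTH, at -0.59 from 0.531 to 0.360 CPM (unadjusted p 0.316). None of the 9 was called, and Ucn had too few reads to be tested.

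**Figure D2:**
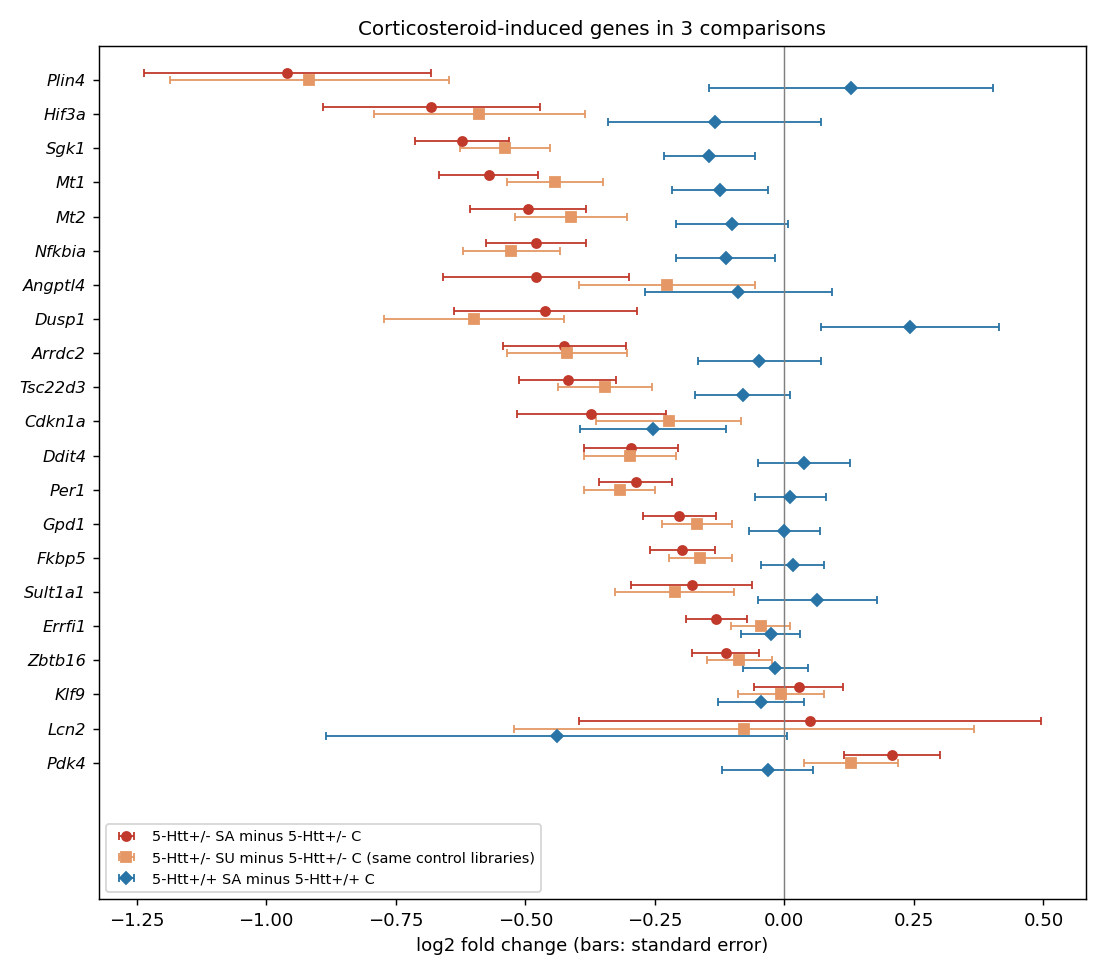
Log2 fold change (horizontal axis) with SE bars of the 21 corticosteroid-induced genes in 3 comparisons: 5-Htt+/- SA against C, 5-Htt+/- SU against the same controls, and 5-Htt+/+ SA against C. In the first, 18 of 21 estimates lie below 0 with a median of -0.37, and in the last 15 lie below 0 with a median of -0.05.

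The same 21 genes were set beside the other groups. For 5-Htt+/- SU against 5-Htt+/- C, which shares its 7 control libraries with the contrast described here, 20 had a lower and 1 a higher estimate, with a median of -0.30 and 2 called. For 5-Htt+/- SA against 5-Htt+/- SU, 13 had a lower and 8 a higher estimate, the median was -0.03 and none had an unadjusted p under 0.05. For 5-Htt+/+ SA against 5-Htt+/+ C, 15 had a lower and 6 a higher estimate, the median was -0.05 and again none had an unadjusted p under 0.05.

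Other lists were built around the genes already known to be called, and describe the rest of each pathway. Among 14 metallothionein and zinc transporter genes Mt1 was called, and 5 were lower and 1 higher at an unadjusted p under 0.05 (Mt1, Mt2, Mt3 at -0.24, the importer Slc39a1 at -0.19 and the vesicular transporter Slc30a3 at -0.17, against the importer Slc39a10 at 0.15). The median of the 14 was -0.06, and of all genes 6.96% were lower and 5.17% higher at that p. Of 9 Sgk, Akt and Pim kinases, only Sgk1 and Pim3 had an unadjusted p under 0.05, and the median was -0.09. Of 14 genes of the NF-kappaB pathway, Nfkbia was called, Nfkbib, another inhibitor, had -0.15, and the median was 0.00.

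Of 20 Notch genes, Lfng was called and 4 were lower at an unadjusted p under 0.05 (2 without either set of libraries), beside 6.96% of all genes. The 4 included the receptors Notch1 at -0.18 and Notch4 at -0.32 and the ligand Dll1 at -0.18. The median of the 20 was -0.06. Of 10 syndecans and glypicans, Sdc4 was called, Sdc3 had -0.15 and the median was -0.11. Of 21 genes of glycogen metabolism, Ppp1r3g was called, Ugp2, which makes UDP-glucose, had 0.21 and the median was -0.03.

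Of 17 circadian clock genes none was called, while 6 were lower and 1 was higher at an unadjusted p under 0.05, beside 6.96% and 5.17% of all genes. Beside Per1, the lower genes were Per2 at -0.17, Bhlhe40 at -0.24, Ciart at -0.42, Nr1d1, the repressor REV-ERBalpha, at -0.18 and the output gene Dbp at -0.29. Arntl, which encodes the activator BMAL1, had 0.11. The median was -0.04. With the 6 libraries of highest first component left out 4 were lower and the median was -0.06, and without the choroid-rich libraries 3 and -0.03. Of all genes, 835 of 30995 and 835 of 30254 were lower at that p in these fits.

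Immediate early genes, which neurons switch on within minutes of activity, had lower estimates for 15 of 16 members, beside 51.9% of all genes, with a median of -0.32. At an unadjusted p under 0.05, 7 were lower, beside 6.96% of all genes, but none passed the adjusted threshold. Egr1 was at 66.6, 93.7 and 135 CPM in 5-Htt+/- C and 57.8, 71.6 and 107 CPM in 5-Htt+/- SA, with a log2 fold change of -0.42 (adjusted p 0.304). Fosb was at 3.64, 5.32 and 8.78 CPM in controls and 3.31, 4.67 and 5.12 CPM in SA, with -0.39. Egr2 had -0.79, Npas4 -0.64, Dusp1 -0.46, Egr4 -0.40 and Junb -0.29, and Nr4a2 alone had an estimate above 0, at 0.13. The control libraries were the more spread, with list means of 3.91 to 4.92 log2 CPM against 3.97 to 4.55 in SA. The median was -0.26 with 4 lower at an unadjusted p under 0.05 without the 6 libraries of highest first component, and -0.38 with 9 without the choroid-rich libraries. Of all genes, 835 of 30995 and 835 of 30254 were lower at that p in these fits. In 5-Htt+/- SU against the same controls 14 of 16 had lower estimates with a median of -0.27, and in 5-Htt+/+ SA against C the median was 0.08.

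**Figure D3:**
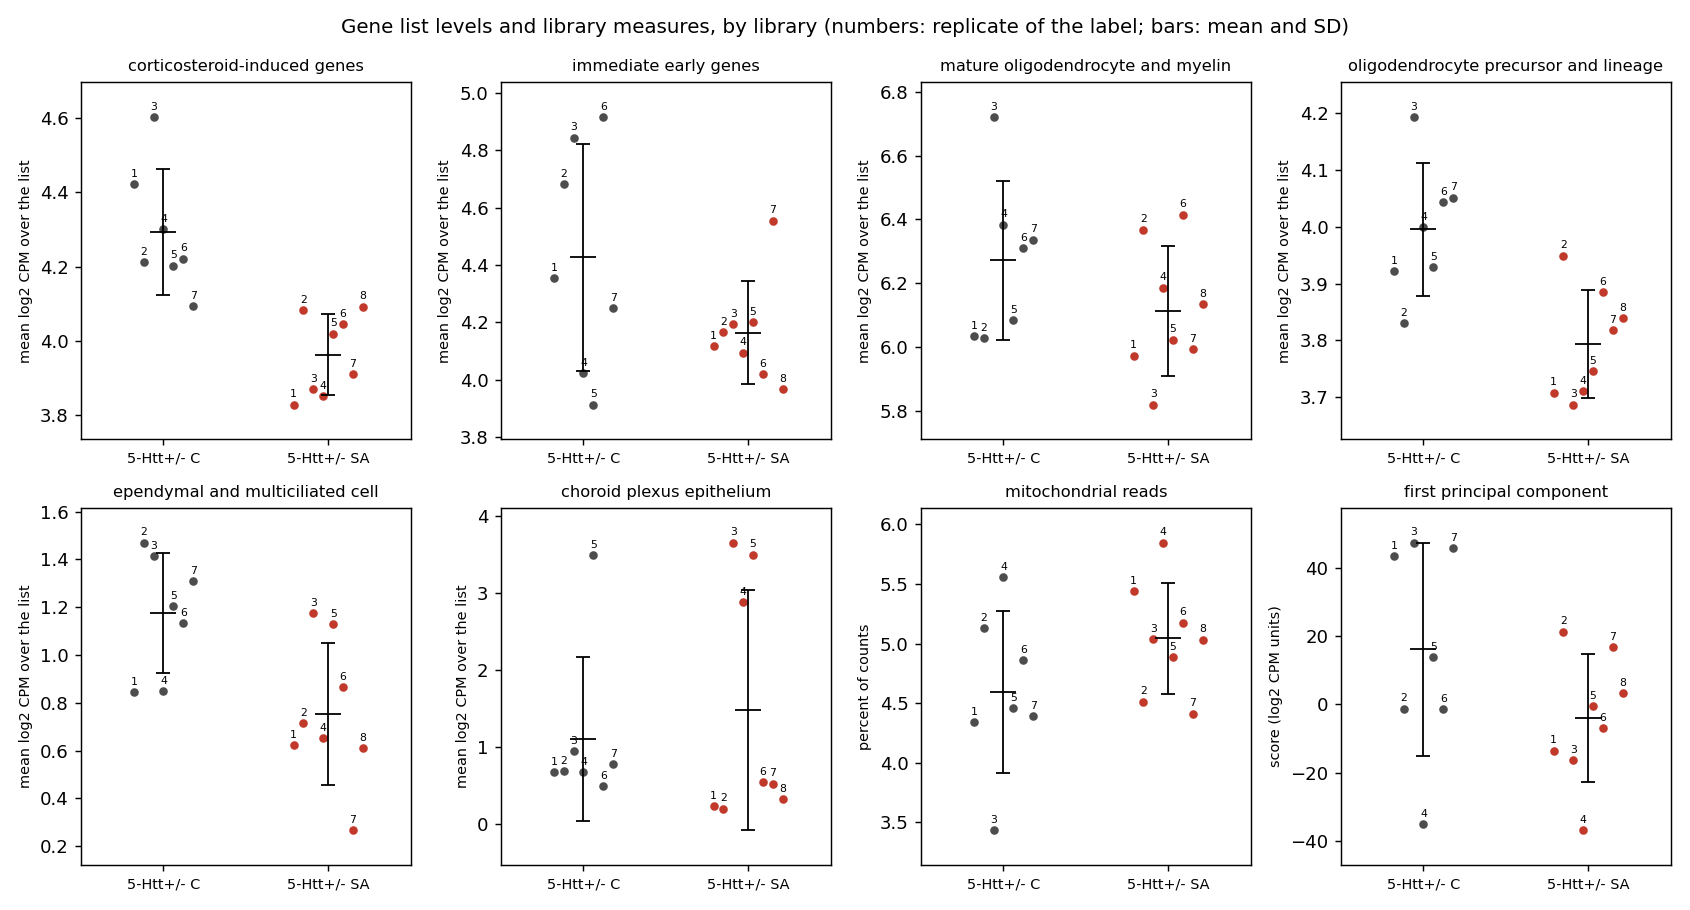
Mean log2 CPM of 6 gene lists, share of mitochondrial reads in percent and first principal component (vertical axes) in each 5-Htt+/- C and 5-Htt+/- SA library, numbered by replicate, with group mean and SD. Control replicates 1, 3 and 7 lie at 43.4 to 47.4 on the first component, and choroid plexus scores over 2 are seen in 1 control and 3 SA libraries.

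Markers of glia had mostly lower estimates in 5-Htt+/- SA, and in bulk tissue fewer cells of a type cannot be told apart from less RNA per cell. None of the markers named in this paragraph passed the adjusted threshold. Of all genes, 51.9% had lower estimates and 6.96% were lower at an unadjusted p under 0.05. Of 10 genes of oligodendrocyte precursors and their lineage 9 had lower estimates, 6 of them at an unadjusted p under 0.05, with a median of -0.20. Cspg4, which encodes NG2, was at 13.5, 15.6 and 17.1 CPM in controls and 9.10, 12.5 and 13.98 CPM in SA, with a log2 fold change of -0.35 (adjusted p 0.106). Neu4 had -0.27, Olig1 -0.30 and Pdgfra, the receptor that marks precursors, -0.20. The list mean was 3.83 to 4.19 log2 CPM in controls and 3.69 to 3.95 in SA. Of 15 markers of mature oligodendrocytes 12 had lower estimates, 9 at an unadjusted p under 0.05, with a median of -0.21, led by the myelin genes Cldn11 at -0.40, Mag at -0.36, Mbp at -0.28 and Cnp at -0.21.

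Of 14 astrocyte markers 11 had lower estimates, 6 at an unadjusted p under 0.05 (beside 6.96% of all genes), with a median of -0.12. Agt, which encodes angiotensinogen, was at 10.9, 13.0 and 16.7 CPM in controls and 7.77, 9.31 and 11.9 CPM in SA, with a log2 fold change of -0.48 (adjusted p 0.102), and the ranges overlapped. Aldh1l1 had -0.24, Fgfr3 -0.23 and Gjb6 -0.27, while the glutamate transporters Slc1a2 and Slc1a3 had 0.01 and -0.01. Without the 6 libraries of highest first component, 1 mature oligodendrocyte marker, 3 of the precursor list and 2 astrocyte markers were lower at an unadjusted p under 0.05, with medians of -0.07, -0.17 and -0.06. Without the choroid-rich libraries these counts were 3, 4 and 5. Of all genes, 835 of 30995 were lower at that p in the first of these fits and 835 of 30254 in the second. As reported it was 2172 of 31208, so these counts fell along with those of all genes. In 5-Htt+/- SU against the same controls, 14 of 15 mature oligodendrocyte markers, 9 of 10 of the precursor list and 8 of 14 astrocyte markers had lower estimates, with medians of -0.27, -0.20 and -0.08. The part of these libraries in the glial differences was not tested.

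All 10 markers of ependymal and multiciliated cells had lower estimates in 5-Htt+/- SA, with a median of -0.34 and none called. At an unadjusted p under 0.05, 4 of them were lower, beside 6.96% of all genes. Ccdc153 was at 1.02, 1.997 and 3.19 CPM in controls and 0.419, 1.005 and 1.18 CPM in SA, with a log2 fold change of -1.11 (adjusted p 0.151). Tmem212 was at 1.27, 1.36 and 3.25 CPM in controls and 0.373, 0.986 and 1.32 CPM in SA, with -0.96, while Rsph1 had -0.33, Rarres2 -0.24 and the ciliary transcription factor gene Foxj1 -0.35. In 5-Htt+/+ SA against C all 10 had higher estimates, with a median of 0.28. At an unadjusted p under 0.05, 3 of them were higher there, beside 565 of 31208 genes. The difference between both SA effects had a median of -0.58. In the test of that difference 8 of the 10 were lower at an unadjusted p under 0.05, beside 949 of 31208 genes lower at that p, and no gene was called. Markers of the same cell type can move together, so these counts are not of separate results. Against 5-Htt+/- SU all 10 had lower estimates in SA, with a median of -0.37 and 1 at an unadjusted p under 0.05, beside 674 lower genes of 31208. For 5-Htt+/- SU against 5-Htt+/- C, 5 had lower and 5 higher estimates, with a median of -0.0043. Ependymal cells line the ventricles, and their list mean of 0.845 to 1.47 log2 CPM in controls against 0.267 to 1.18 in SA overlapped between groups.

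Choroid plexus markers, from the tissue that makes cerebrospinal fluid, varied with single libraries. Ttr was at 5.99, 24.4 and 575 CPM in controls and 9.42, 17.1 and 617 CPM in SA. All 12 had higher estimates in SA with a median of 0.46, none at an unadjusted p under 0.05. The median was -0.07 without the 6 libraries of highest first component. It was -0.45 without the choroid-rich libraries. Those were left out for their high levels of these same markers, more of them SA than control, so that fit cannot test the direction of this list. The ependymal median stayed below 0 in both cases, at -0.31 and -0.43.

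Of 12 endothelial markers, Mfsd2a was called, 6 had lower and 6 higher estimates, and the median was 0.02. Slc2a1, the glucose transporter GLUT1 of the blood-brain barrier, was at 50.4, 65.7 and 88.0 CPM in controls and 38.0, 46.2 and 63.8 CPM in SA, with a log2 fold change of -0.48 (adjusted p 0.0755), and Ly6c1 had -0.19. Microglial markers had a median of -0.08 with 3 of 12 lower at an unadjusted p under 0.05, beside 6.96% of all genes. Without the 6 libraries of highest first component the median was 0.00 and none was lower at that p. Mural cell and meningeal fibroblast lists, of 8 genes each, held none at that p.

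The 6 dentate granule cell markers and the 5 CA1 markers held none at an unadjusted p under 0.05, and of 7 CA2 and CA3 markers 2 were lower and 1 was higher, with a median of -0.14 that was -0.02 without the 6 libraries of highest first component. Of 12 interneuron markers 1 was lower, while of all genes 6.96% were lower and 5.17% higher at that p. Among 25 glutamate and GABA receptor subunits 18 had higher estimates, with a median of 0.10, and 3 were higher and 2 lower at an unadjusted p under 0.05. The higher ones included the AMPA receptor subunit Gria4 at 0.29 and the GABA-A subunit Gabra2 at 0.32, and the lower ones Grin1 at -0.17 and Grm2 at -0.21. Gria4 was at 47.9, 66.7 and 90.6 CPM in controls and 63.0, 81.1 and 110 CPM in SA, with wide overlap, and its estimate was as low as 0.082 in other fits. The 25 subunits, without the 6 libraries of highest first component, had a median of 0.01, with 14 higher, 11 lower and none higher at an unadjusted p under 0.05. None of the 16 serotonin system genes, receptors and monoamine oxidases included, had an unadjusted p under 0.05, and their median was 0.01.

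Among 15 heat shock and chaperone genes 4 were higher at an unadjusted p under 0.05, beside 5.17% of all genes. They were Hsp90aa1 at 0.27, Hsp90b1 at 0.28, Dnaja1 at 0.13 and Hspd1 at 0.12. None of the 15 was higher at that p without the 6 libraries of highest first component, without the choroid-rich libraries, or with the first component or mitochondrial share as a term, and Hsp90aa1 was as low as 0.10 and Hsp90b1 as low as 0.099. All 13 mitochondrial genome transcripts had higher estimates, 4 at an unadjusted p under 0.05, with a median of 0.11, which became 0.01 with 7 higher and 6 lower when the 6 libraries of highest first component were left out. Of nuclear oxidative phosphorylation genes 3 of 27, and of cytosolic ribosomal protein genes 4 of 26, were lower at an unadjusted p under 0.05, beside 6.96% of all genes. The medians of these lists were -0.07 and -0.06. Both directions turned without the 6 libraries of highest first component, to medians of 0.05 (24 of 27 higher) and 0.07 (23 of 26 higher). None of 10 neurogenesis genes reached that p, and neurotrophin, cholesterol synthesis, interferon, thalamic, pituitary and pineal lists held at most 3 genes at it each.

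**Figure D4:**
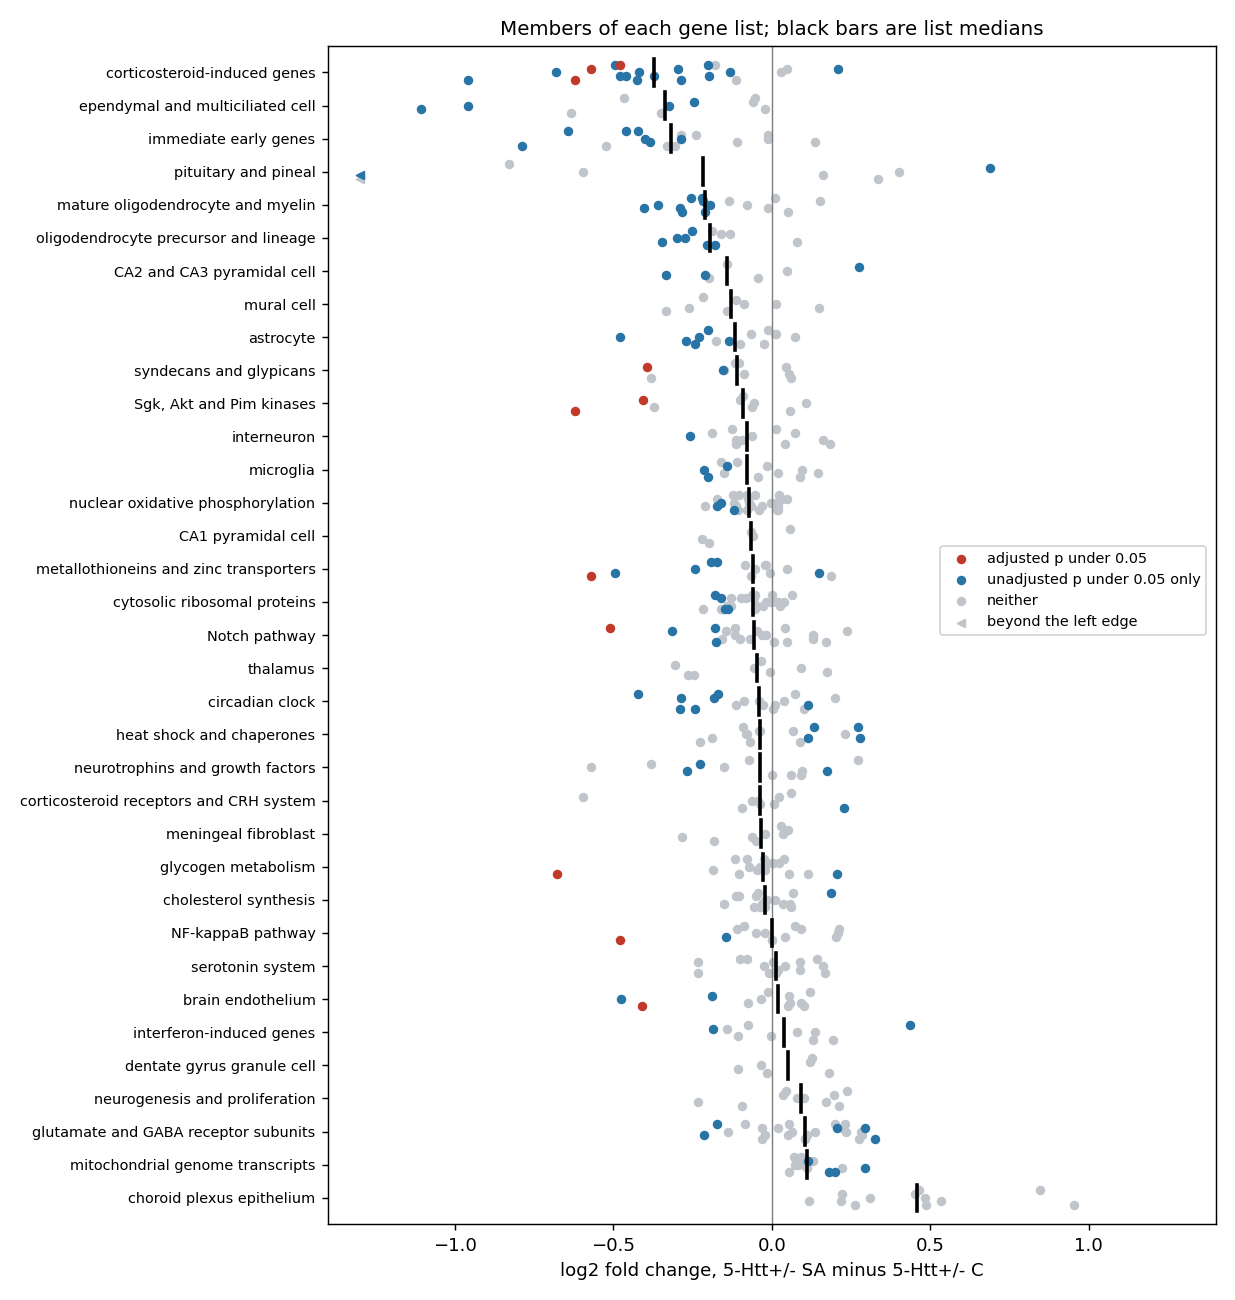
Log2 fold change of each tested member of 35 gene lists (1 point per gene, bars at list medians) in 5-Htt+/- SA against 5-Htt+/- C, coloured by an adjusted p under 0.05 or an unadjusted p under 0.05 alone, with triangles for values beyond the left edge. The lowest medians are those of corticosteroid-induced genes at -0.37, ependymal markers at -0.34 and immediate early genes at -0.32.

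Several genes lay just beyond the adjusted threshold. Cmtm3, a membrane protein gene, had no overlap between groups, with 4.72, 5.01 and 5.92 CPM in controls and 3.12, 3.57 and 4.34 CPM in SA, a log2 fold change of -0.48 and an adjusted p of 0.0755. At the same adjusted p stood Tprn at -0.39 and the RNA-binding protein gene Carhsp1 at -0.34, followed by Psat1 of serine synthesis at -0.26 (adjusted p 0.102). The unclassified transcript Gm44679 (chromosome 7, 91519115 to 91522022) held 0 or 1 read in each of 7 control libraries and in SA replicates 2 and 4, but 31 to 46 reads in the other 6 SA libraries. No fold is given for it, and its adjusted p was 0.0755. In 5-Htt+/- SU its highest library stood at 1.247 CPM and in 5-Htt+/+ C, SA and SU at 1.51, 1.38 and 1.78 CPM, so libraries above 1 CPM were seen in every group except 5-Htt+/- C. The antisense transcript Gm13335 held 0 to 3 reads in controls and 1 to 12 in SA.

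Protein-coding genes with higher estimates had small differences, and none was called. Cdkl3, a cyclin-dependent kinase-like gene, was at 10.3, 10.7 and 11.7 CPM in controls and 11.6, 12.5 and 14.3 CPM in SA, with a log2 fold change of 0.23 (adjusted p 0.199). Serpini1, which encodes the axonally secreted protease inhibitor neuroserpin, was at 145, 174 and 216 CPM and 168, 212 and 280 CPM, with 0.30 (adjusted p 0.26). Mphosph8 had 0.33, Mpp6, Ankrd29 and Cox16 each 0.24, the translation factor gene Eif5 0.21, and Commd8 and Zfp110 each 0.20. Among tested genes of any type, the SA libraries all lay above all controls in 5 (0.016%), and all below in 10 (0.032%). The 5 were Gpr55, Gm13377, Gm14409, Mir1933 and Tmsb15l, named here after their values were seen. None of the 5 was called, and they are listed only as a description. How many genes would separate so by chance was not estimated.

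Whether the SA difference depended on genotype was tested directly, as the SA effect in libraries labelled 5-Htt+/- minus that in libraries labelled 5-Htt+/+. No gene was called (0%, smallest adjusted p 0.769), while 1626 genes (5.21%) passed an unadjusted p of 0.05. The edgeR likelihood ratio test and DESeq2 also called 0 there. A replicate block did give calls, counted in the last section, though replicate numbers did not pair the samples. For Sgk1 the difference of effects was -0.48 (SE 0.13, unadjusted p 0.00043, adjusted p 0.846), with log2 fold changes of -0.62 in 5-Htt+/- and -0.14 in 5-Htt+/+. For Sdc4 it was -0.41 (unadjusted p 0.000572), with -0.39 and 0.02. Mt1 had -0.45, Ppp1r3g -0.54, Lfng -0.47, Nfkbia -0.37, Mfsd2a -0.37, Pim3 -0.35 and RP23-185B22.1 0.86, each at an adjusted p of 0.846. None of the 9 genes can thus be called particular to 5-Htt+/-.

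Among stressed 5-Htt+/- offspring, SA and SU gave no called gene in the edgeR quasi-likelihood test (0%, smallest adjusted p 0.864), 1183 genes (3.79%) had an unadjusted p under 0.05, and the edgeR likelihood ratio test called 1. Between SA and SU, Sgk1 differed by -0.08 (SE 0.09), Mt1 by -0.13, Nfkbia by 0.05, Sdc4 by -0.14, Lfng by -0.13, Ppp1r3g by -0.24 and Mfsd2a by -0.09 on the log2 scale. Against the same 5-Htt+/- C libraries, SU had log2 fold changes of -0.54 for Sgk1 (adjusted p 0.00463), -0.53 for Nfkbia (adjusted p 0.0153), -0.40 for Pim3 (adjusted p 0.0364) and 1.23 for RP23-185B22.1 (adjusted p 0.0487). Mt1 had -0.44 there (adjusted p 0.0579). The SA and SU contrasts share their controls, so these values stand side by side and are not separate evidence.

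**Figure D5:**
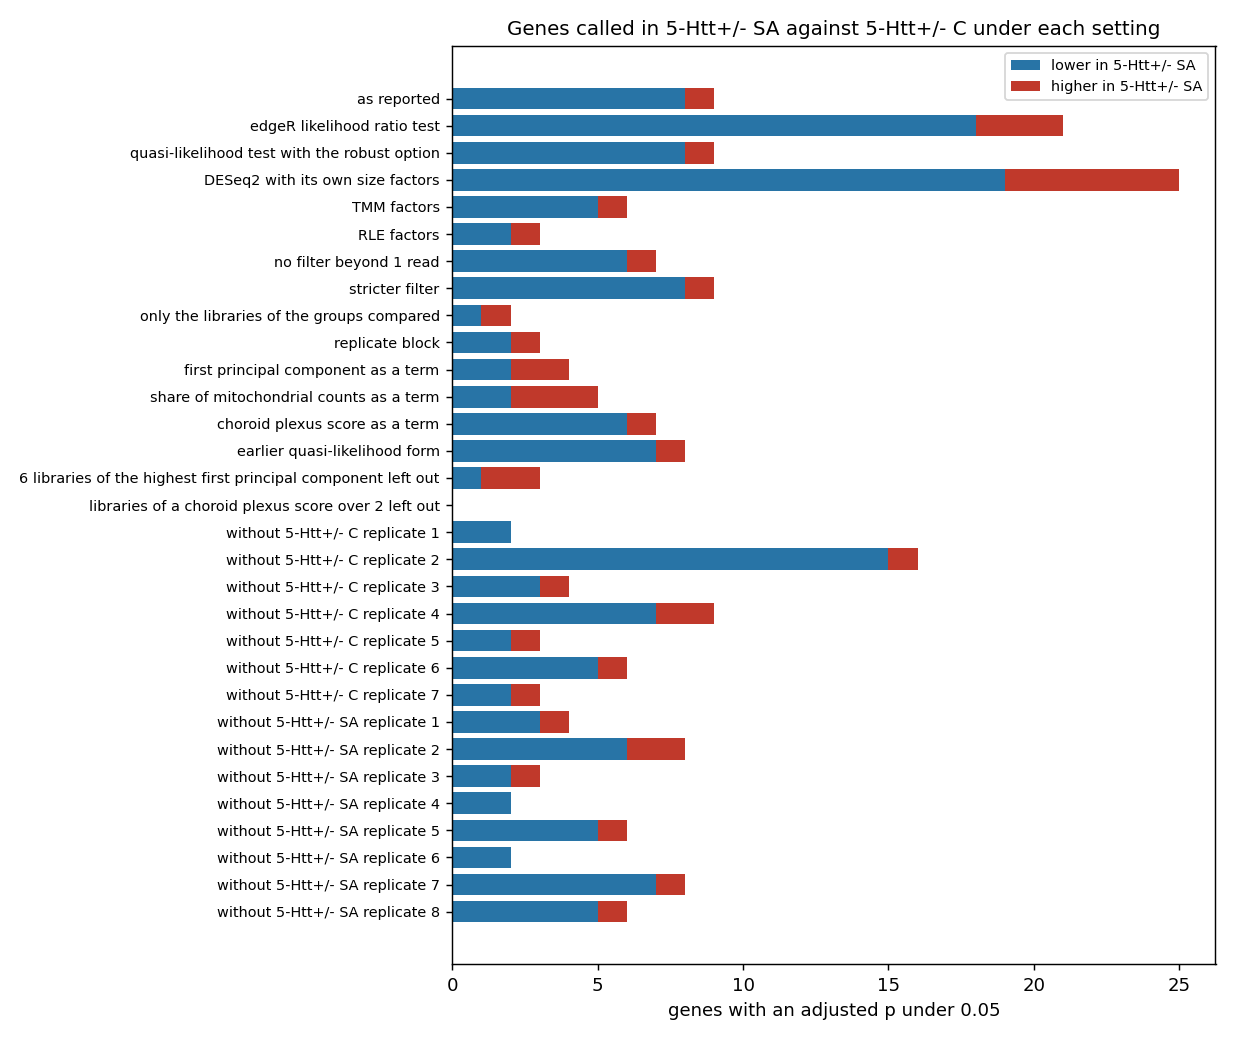
Number of genes called lower and higher in 5-Htt+/- SA against 5-Htt+/- C (horizontal axis) under each setting and with each library left out. The count is 9 as reported, 25 with DESeq2, 3 without the 6 libraries of highest first component, 0 without the choroid-rich libraries and 2 to 16 with 1 library left out.

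The number of calls varied with the fit, while the direction of the called genes did not. The likelihood ratio test called 21 genes and DESeq2 25, and both held all 9. Left out singly, 5-Htt+/- C replicate 1 and 5-Htt+/- SA replicates 4 and 6 each left 2 calls, and 5-Htt+/- C replicate 2 left 16. Sgk1 and Mt1 passed in all 15 of these fits, RP23-185B22.1 in 11, Ppp1r3g and Lfng in 6, Pim3 and Nfkbia in 5, Sdc4 in 4 and Mfsd2a in 1. Of the 15 other settings, Sgk1 passed in 14, Mt1 in 12, RP23-185B22.1 in 10 and Pim3, Ppp1r3g and Lfng in 8 each. Nfkbia passed in 7, Sdc4 in 5 and Mfsd2a in 4. RLE factors gave 2 lower and 1 higher call, where the upper quartile gave 8 and 1. Among genes at an unadjusted p under 0.05, RLE factors gave 1794 lower and 1892 higher, DESeq2 1682 and 1715, where the upper quartile gave 2172 and 1614. The excess of lower over higher genes thus depended on the scaling, with a median of all genes of -0.01 under the upper quartile and 0.01 under RLE. None of the 9 called genes changed direction in any of these fits. They were called for a difference in these same libraries, so a change of sign was unlikely from the start.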

How the data were processed

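The authors deposited a table of whole-number read counts per gene for 48 single-end libraries, and per the labels' processing notes used STAR, HTSeq, DESeq2 and GRCm38.p5. The study's methods name Salmon and edgeR instead for counting and testing, so the counter is uncertain. Whether counting used strand is not stated in these sources, so reads of genes and antisense partners cannot be told apart. The table lists 48440 genes, and the 31208 of them that reached 5 reads in 3 or more libraries were tested with edgeR 4.0.16 in R 4.3.3, with upper quartile factors and 1 quasi-likelihood model of 6 group means over all 48 libraries. SE is the log2 fold change over the root of F, and p-values were Benjamini-Hochberg adjusted. CPM carry a prior count of 2 only on the log2 scale. Single values per library were compared by exact permutation with scipy 1.17.1. Reads carry no molecular identifiers, and depth covers counting error alone.

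Named genes were those called, the 25 smallest p, the 3 smallest p of each list, Slc6a4, and the 10 smallest p in each direction among protein-coding genes of at least 10 CPM. All members of the corticosteroid list were named, and a few members of other lists by their roles or values. Members, lists and rules were chosen with earlier results of these data known. Litters are not labelled, and the study allowed littermates, so p-values may be too small. Alternatives were other tests (DESeq2 1.42.0), scalings, filters, covariates, a replicate block and omitted libraries. The fit was first tested on simulated counts with known differences. At folds of 1.25, 1.5, 2 and 4 it called 44%, 80%, 98% and 98% of 50 changed genes each. The changed genes were drawn only from genes above a floor of expected reads that was higher than the filter for testing. Recovery of low-count genes was therefore not tested. The simulated counts had no shared differences between libraries, such as the first component or choroid plexus tissue, so recovery in these libraries may be lower. Some genes are not reported here by name. No libraries were near duplicates (chi-square per gene 4.83 or more).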

Additional observations from a re-analysis of the deposited data

Results flagged for a closer look

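Of 96 sets of libraries checked within 5-Htt+/- C and 5-Htt+/- SA, 7 held a library far from the others of its group, where chance gives about 1 in 20. Mt1 in 5-Htt+/- C replicate 3 was at 133.72 CPM, with the nearest control at 84.583 CPM. In 5-Htt+/- C replicate 4 the mean of CA2 and CA3 pyramidal cell markers was 5.32039 log2 CPM, below the next at 5.55932, and that of thalamus markers was 3.34273 log2 CPM, above the next at 2.99371. In 5-Htt+/- C replicate 5 the choroid plexus mean was 3.49453 log2 CPM, above the next at 0.94637. The same library had a pituitary and pineal mean of -0.165715 log2 CPM against -1.30273 in the next, with 273 reads of the pituitary hormone gene Prl (8.04 CPM) and 130 of Gh (3.83 CPM), where no other control had more than 13 and 2. In 5-Htt+/- SA replicate 7 the immediate early gene mean was 4.55464 log2 CPM, above the next at 4.20054. In 5-Htt+/- SA replicate 3 the mean of metallothioneins and zinc transporters was 5.195 log2 CPM, below the next at 5.25345.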

How the results depend on the processing

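Genes called in 5-Htt+/- SA against 5-Htt+/- C numbered 9 as reported, 21 with the likelihood ratio test, 25 with DESeq2, 3 with RLE factors, 2 with the 15 libraries alone, 4 with the first principal component and 5 with the mitochondrial share as a term. They numbered 3 without the 6 libraries of highest first component and 0 (DESeq2 not run there; 1382 genes at an unadjusted p under 0.05) without the choroid-rich libraries, both chosen after seeing the data, and 2 to 16 with 1 library left out. Genes at an unadjusted p under 0.05 numbered 3786 as reported, 2488, 1870 and 1745 with the 15 libraries alone, the first component and the mitochondrial share, 1652 and 1382 without those sets of libraries, and 2509 to 6485 with 1 library left out, the ends being 5-Htt+/- C replicates 3 and 4. With the choroid plexus score as a term, which kept all 48 libraries, 2072 genes were lower and 1482 higher at that p. As reported these were 2172 and 1614. SA against SU gave 1 call with the likelihood ratio test, and 0 to 0 with 1 library left out. The difference in mitochondrial share, 0.447 percentage points, was 0.254 to 0.607 with 1 library left out (exact permutation p = 0.046 without 5-Htt+/- C replicate 4). The cause of these changes was not tested, beyond the fewer libraries of some fits.

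Replicate numbers did not pair the samples: of 7 pairs, 1 had a correlation over 0.1 (range -0.14 to 0.195) and 2 correlated best with their own number. A replicate block gave 3 calls in SA against C, and 2 for the difference of SA effects between genotypes.

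Of the other named genes, those that changed sign were as follows, in log2 fold change. DESeq2 gave Gh 1.27 and Slc6a4 0.0053, TMM Slc6a4 0.0028 and RLE Slc6a4 0.0039. With the first component as a term Srebf2 had 0.012, Mpped1 0.043, Ttr -0.89 and Dcn -0.10, with the mitochondrial share Dcn -0.14, and with the choroid score Ttr -0.031. Without the 6 libraries of highest first component Slc32a1 had 0.0078, Cox5b 0.0069, Mvd 0.033, Dcx -0.042, Srebf2 0.012, Sox11 -0.0086, Calb1 -0.0097, Rgs5 -0.0031, Wfs1 0.069, Stxbp6 -0.072, Mpped1 0.065 and Dcn -0.051. Without the choroid-rich libraries Gh had 1.18, Tdo2 -0.0030, Ttr -0.60, Dcn -0.13 and Slc6a4 0.026. With 1 library left out Slc6a4 ran from -0.0405 to 0.0136, Gh from -3.55 to 1.28 and Dcn from -0.0561 to 0.177. None of these passed the threshold as reported. Over all alternatives, 3548 values of named genes were on the same side of the threshold with the same sign, most of them for genes not called as reported. A further 126 lost the threshold, which only the called genes could do, 38 gained it and 35 changed sign.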
